A study of Mus musculus with 48 samples.

Results

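Isolated hepatocyte preparations were compared with whole mouse liver, to describe which transcripts differ once hepatocytes have been taken out of the organ and how much of the signal of each other liver cell type remains. The members are the samples labelled as isolated primary hepatocytes or as endogenous liver: 3 hepatocyte preparations and 3 livers, so 6 of the 16 samples and 18 of the 48 libraries of the series, since every sample was sequenced as 3 technical libraries that were summed. The study grew liver spheroids from such hepatocytes and placed them on the iris in the anterior chamber of the mouse eye, and the remaining samples are the explanted grafts, irises and cultured spheroids, in 5 groups in all. Both groups used here were wild-type albino C57BL/6N mice by their labels, called donor mice. The methods describe adult mice of both sexes for the work as a whole and do not give the age or sex behind each of these samples. The preparations were made by 2-step perfusion of the liver with a collagenase blend after the organ had been drained of blood, followed by straining, low-speed spins and a Percoll density gradient, in cold plating medium that held serum, insulin and the glucocorticoid dexamethasone. They are described as enriched in hepatocytes and not as pure, and no perfusion of the livers is described. Neither the labels nor the methods give the time between death or perfusion and lysis, the time of day or which animals lie behind each sample, so p-values measure only the spread between these samples.

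Hepatocytes make up most of the liver's mass. The sinusoids between them are lined by fenestrated endothelial cells and hold resident macrophages (Kupffer cells), while stellate cells lie in the space of Disse, and bile ducts, vessels and fibroblasts sit in the portal tracts. Collagenase digestion opens the matrix that holds these cells together, and cells taken out of a tissue are known to switch on immediate early genes, which are transcribed from pre-formed factors without new protein synthesis.

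The preparations held 3573075, 3154748 and 2718518 counts and the livers 3694530, 3523171 and 3871404. Levels are CPM, counts scaled to a common library size by TMM (trimmed mean of M values). They are not divided by gene length and are compared only within a gene. Between 18256 and 19053 genes were detected in the preparations and between 19904 and 20779 in the livers (exact permutation p = 0.1, two-sided, the smallest that 3 against 3 samples allow). The mitochondrial genome took 0.997% to 1.23% of the counts in preparations and 0.844% to 0.918% in livers. Liver 1 stood apart from livers 2 and 3 in sex-biased hepatocyte genes. It also carried more stromal and immune transcripts, with 148% of the liver mean for stellate cell genes and 174% for collagen genes, and preparation 2 stood apart from preparations 1 and 3 in the zonation genes. For many lists, medians or calls are given with and without single samples. Summed levels are set against the mean of all 3 livers, liver 1 included.

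Of 12236 genes that passed the filter on low counts, 50 were called higher in the preparations (0.409%) and 283 lower (2.31%), at an adjusted p under 0.05 and a log2 fold change beyond 1 in edgeR's quasi-likelihood test with Benjamini-Hochberg adjustment. In 1869 genes (15.3%) every preparation was above every liver, and in 2104 (17.2%) every preparation was below, 32.5% in all. In a single fit of all 5 groups, which shares the estimate of spread with tissues not compared here, 217 genes were called higher (1.27%) and 923 lower (5.41%). Gene positions are those of the mm10 build in the files. All log2 fold changes are the preparations minus the livers. The median over all genes tested was 0.00923, and 49.1% were below 0. Calls varied widely between the fits without 1 sample: without preparations 1, 2 and 3 in turn, 110, 8 and 4 genes were called higher and 338, 7 and 4 lower, and without livers 1, 2 and 3, 28, 5 and 16 higher and 115, 15 and 83 lower. Fixed lists of cell type and function genes held 64 of the 283 lower calls, 43 of them in cell type lists, and 15 of the 50 higher calls, 0 of them in cell type lists. In bulk samples, fewer cells of a type and less RNA per cell cannot be told apart. Near-identical copies such as *Saa1* and *Saa2*, *Hba-a1* and *Hba-a2* or *Hbb-bs* and *Hbb-bt* can share reads and are uncertain individually.

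Immediate early genes had more higher calls than any other list. Of 38 genes of this list, 29 passed the filter and 11 were called higher and 0 lower, against 0.409% of all genes tested called higher. The 29 had a median log2 fold change of 1.42, and 23 were above 0. Members such as *Fosb* passed the filter through the preparations alone, so these counts describe the tested genes. With at least 10 counts required in every sample 23 members were left, with a median of 1.29, and 8 were called higher. The summed level of all 38 in preparations 1, 2 and 3 was 256%, 592% and 510% of the liver mean, while the livers lay between 79.5% and 122% of it.

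**Figure D1:**
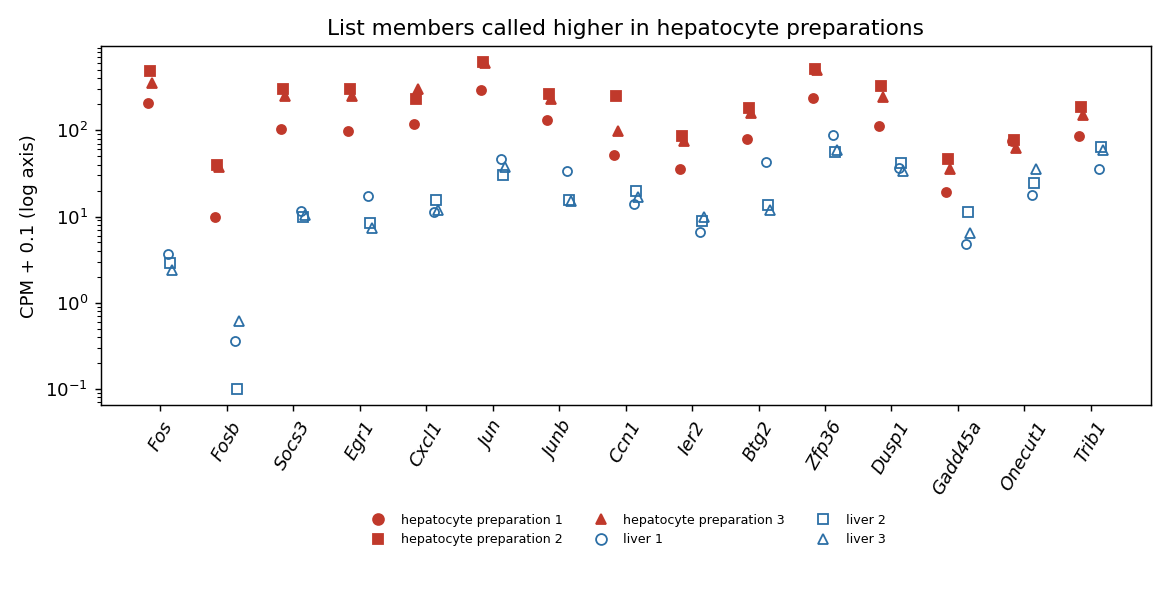
Each gene of the fixed lists that was called higher, in order of log2 fold change, with CPM + 0.1 on a log axis and 1 point per sample (red, hepatocyte preparations; blue, livers). The groups do not overlap in any of the 15 genes, and preparation 1 is the lowest preparation in all of them except *Onecut1*.

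The AP-1 genes, whose products pair to form the AP-1 transcription factor, were among those that rose most. *Fos* (ENSMUSG00000021250, chromosome 12, 85473890 to 85477273) was at 207, 489.7 and 352 CPM in preparations 1, 2 and 3 and at 3.61, 2.76 and 2.28 CPM in livers 1, 2 and 3. Every preparation was far above every liver, with a log2 fold change of 6.90 ± 0.40 (SE; adjusted p = 0.000903). *Jun* was at 290.2, 613 and 595 CPM in preparations and 45.9, 30.4 and 37.8 CPM in livers (3.71 ± 0.31, adjusted p = 0.00399). *Junb* was at 130.2, 265 and 230.5 CPM in preparations and 33.8, 15.5 and 15.2 CPM in livers (3.27 ± 0.38, adjusted p = 0.0136), again without overlap. *Fosb* had 34, 121 and 94 counts in preparations and 1, 0 and 2 in livers, so it was at least 36.7-fold higher with the livers set to 3 counts each (adjusted p = 0.0173). The Jun family member *Jund* (log2 fold change 0.19) and the Fos family member *Fosl2* (−0.46) were not called. The antisense transcript *Junos* was also called (2.98, adjusted p = 0.0112), but it shares exon bases with *Jun* and counting ignored strand, so these reads cannot be told apart.

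*Egr1*, a zinc finger factor of the growth factor response, was at 98.9, 303 and 249.9 CPM in preparations and 17.3, 8.29 and 7.35 CPM in livers (4.30 ± 0.49, adjusted p = 0.0136). *Ier2* was at 35.3, 86.7 and 74.3 CPM in preparations and 6.45, 8.84 and 9.89 CPM in livers (2.95 ± 0.36, adjusted p = 0.0161). In both, as in the AP-1 genes, preparation 1 was the lowest preparation and still lay above the highest liver.

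Feedback regulators rose with them. *Zfp36*, which speeds the decay of AU-rich mRNAs, was at 239, 516 and 498 CPM in preparations and 88.5, 55.8 and 59.3 CPM in livers (2.62 ± 0.32, adjusted p = 0.0161). *Dusp1*, the phosphatase that switches off p38 and JNK kinases and also a glucocorticoid target, was at 111, 325 and 240.0 CPM in preparations and 36.4, 41.7 and 33.7 CPM in livers (2.59 ± 0.35, adjusted p = 0.0202). The antiproliferative *Btg2* was at 79.7, 183 and 158 CPM in preparations and 42.6, 13.5 and 11.7 CPM in livers (2.63 ± 0.51, adjusted p = 0.0393). Liver 1 was the highest liver in *Zfp36* and *Btg2*, and no liver reached a preparation. The growth arrest gene *Gadd45a* (2.17, adjusted p = 0.0393) and the pseudokinase gene *Trib1* (1.42, adjusted p = 0.0471) were called as well.

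Other members were not called. *Atf3*, a stress-induced repressor, was at 13.5, 169 and 107 CPM in preparations and 12.1, 6.35 and 5.58 CPM in livers (log2 fold change 3.57 ± 0.80, adjusted p = 0.0511). Preparation 1 lay just above liver 1, and preparations 2 and 3 were far higher. *Gadd45g* was at 59.4, 281 and 248 CPM and 65.3, 8.56 and 5.33 CPM, where liver 1 was above preparation 1 (adjusted p = 0.102). *Myc* was at 7.46, 28.3 and 22.9 CPM and 46.5, 4.42 and 3.80 CPM, highest of all in liver 1 (log2 fold change 0.09, adjusted p = 0.963). *Nr4a1* was at 0.574, 16.1 and 39.1 CPM and 4.90, 1.38 and 1.01 CPM, with preparation 1 below all livers. *Mcl1* (−0.27), *Rhob* (−0.93) and *Klf6* (−0.57) were below 0 and not called. Of the 11 calls, 11, 4 and 2 were kept without preparations 1, 2 and 3 and 9, 2 and 7 without livers 1, 2 and 3, and the median of the list was 1.91 without liver 1 and 1.18 without preparation 2. *Fos* and *Jun* were called in each of these fits.

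Promoters of called immediate early genes were searched for set letter patterns of elements bound by stress response factors. Those of *Jun* and *Gadd45a* held none of these patterns. Sequences from 250 bases before to 50 after the start site (RefSeq, GRCm38.p6) were taken for 8 of the 11 genes, all but *Egr1*, *Ier2* and *Trib1*. On both strands, the cyclic AMP response element TGACGTCA was found in 2 of the 8, *Btg2* and *Dusp1*, against 2.03% of all 27025 genes in the table and 3.54% of the genes tested here. Its core TGACG, which every such element contains, was found in 5 of the 8, also in *Fos*, *Fosb* and *Junb*, against 23% and 35.6%. The AP-1 site TGANTCA was found in 0 of the 8 (8.97% and 6.41%) and the CArG box, the site of serum response factor, in 1 (1.81% and 1.51%), in *Zfp36*. A match is a description of the letters and not a bound site, and elements outside these bases or with other letters were not searched. The 4 promoters below show the elements in 5′ to 3′ direction, for *Fos* at chr12:85473640-85473939 (plus strand), *Dusp1* at chr17:26508423-26508722, *Btg2* at chr1:134079106-134079405 and *Zfp36* at chr7:28379179-28379478 (minus strand), with capitals for TGACG, TGACGTCA and the CArG box.
Fos: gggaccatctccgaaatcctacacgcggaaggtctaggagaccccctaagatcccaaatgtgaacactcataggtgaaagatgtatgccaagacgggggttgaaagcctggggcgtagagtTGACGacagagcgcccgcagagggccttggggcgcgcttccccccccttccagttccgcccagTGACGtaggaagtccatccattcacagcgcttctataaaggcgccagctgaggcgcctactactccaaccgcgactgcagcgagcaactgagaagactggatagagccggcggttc
Dusp1: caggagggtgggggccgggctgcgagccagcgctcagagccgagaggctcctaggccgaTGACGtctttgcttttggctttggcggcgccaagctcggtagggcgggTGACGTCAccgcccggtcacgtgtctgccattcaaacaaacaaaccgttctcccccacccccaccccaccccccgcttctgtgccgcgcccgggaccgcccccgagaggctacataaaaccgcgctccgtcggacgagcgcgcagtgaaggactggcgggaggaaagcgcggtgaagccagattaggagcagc
Btg2: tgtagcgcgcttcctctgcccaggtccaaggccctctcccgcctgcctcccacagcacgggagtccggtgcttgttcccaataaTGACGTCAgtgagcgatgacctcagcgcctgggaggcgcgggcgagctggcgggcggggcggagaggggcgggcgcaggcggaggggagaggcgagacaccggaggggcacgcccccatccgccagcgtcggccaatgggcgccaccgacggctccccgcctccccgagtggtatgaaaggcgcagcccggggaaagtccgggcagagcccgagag
Zfp36: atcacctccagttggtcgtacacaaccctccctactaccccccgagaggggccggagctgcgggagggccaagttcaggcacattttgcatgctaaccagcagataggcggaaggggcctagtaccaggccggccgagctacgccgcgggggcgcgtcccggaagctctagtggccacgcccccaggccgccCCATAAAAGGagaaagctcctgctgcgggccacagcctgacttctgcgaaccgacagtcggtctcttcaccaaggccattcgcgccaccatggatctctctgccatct
In *Fos* the core begins 129 and 66 bases before the start site. In *Dusp1* the whole element begins 143 bases before it, in *Btg2* 166 bases before it, and the CArG box of *Zfp36* 58 bases before it.

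Among cytokine response genes, 20 of 27 passed the filter, and 2 were called higher and 2 lower, against 0.409% and 2.31% of all genes tested. The median was −0.15. *Socs3* (ENSMUSG00000053113, chromosome 11, 117966079 to 117970047), the feedback inhibitor of STAT3 signalling, was at 104, 301 and 250.3 CPM in preparations and 11.4, 9.67 and 10.4 CPM in livers (4.38 ± 0.40, adjusted p = 0.00445). *Cxcl1*, a neutrophil chemokine, was at 118, 230.4 and 297 CPM in preparations and 11.1, 15.5 and 11.7 CPM in livers (4.07 ± 0.35, adjusted p = 0.00399). Both were called in each fit without 1 sample. *Vcam1*, an adhesion molecule of sinusoidal cells, fell, from 63, 27.1 and 33 CPM in livers to 6.60, 6.92 and 9.88 CPM in preparations (−2.41 ± 0.37, adjusted p = 0.031), as did the macrophage growth factor *Csf1* (−1.55, adjusted p = 0.05). Of these 2 falls 1 was kept without preparation 1, liver 1 or liver 3, and 0 without preparation 2, preparation 3 or liver 2. *Stat3* itself (−0.24), *Nfkbia* (0.21) and *Irf1* (0.12) were not called. The list median turned to 0.07 without preparation 1 and 0.24 without liver 1.

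The remaining stress lists held few calls. Of 15 heat shock genes all were tested and 0 were called in edgeR, with a median of 0.21. At an unadjusted p under 0.05 there were 3 higher and 1 lower, and DESeq2 called 1, *Serpinh1*, lower. In this and every other list with 0 edgeR calls, limma-voom called 0 as well. *Dnajb1*, an HSP70 co-chaperone, had an adjusted p of 0.0499 at a log2 fold change of 0.69, under the limit of 1, with 128, 148 and 104 CPM in preparations and 71.7, 79.3 and 84.5 CPM in livers. The 21 tested genes of ATF4 and the unfolded protein response (of 23) had a median of 0.01, and the asparagine synthetase gene *Asns* fell (−1.48, adjusted p = 0.0475), with 10.9, 28.7 and 21 CPM in preparations and 51.9, 69.3 and 46.2 CPM in livers. This call was kept without preparation 1 and lost in the other 5 fits without 1 sample. The chaperone *Hspa5* was at 767, 1077 and 1479.5 CPM in preparations and 780.5, 748 and 931 CPM in livers. Of 12 NRF2 targets, 16 tested hypoxia targets (of 19) and 4 cold-inducible genes, 0 were called in edgeR or DESeq2, with medians of −0.37, 0.05 and −0.25. The NRF2 median was −0.13 without liver 1, the hypoxia median 0.01 without liver 1 and 0.14 without liver 2, and the cold-inducible median −0.10 without preparation 1. At an unadjusted p under 0.05, 4, 1 and 1 of them were lower. The cold-inducible *Rbm3* was lower without overlap, at 55.1, 56 and 61.3 CPM in preparations and 109, 96.4 and 96.4 CPM in livers, short of the fold limit (−0.81, adjusted p = 0.0289). Of 17 glucocorticoid targets, *Dusp1* was the 1 call, and *Fkbp5* (−0.97), *Per1* (−1.12), *Tsc22d3* (−0.11) and *Tat* (0.11) were not called. These medians lay near 0 and moved with the scaling: with size factors from the hepatocyte genes, those of heat shock, hypoxia, glucocorticoid and ATF4 genes were −0.01, −0.17, −0.12 and −0.23.

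Acute phase genes, the secreted proteins that hepatocytes make under interleukin-6, had few calls. All 25 were tested, and 0 were called higher and 2 lower, against 0.409% and 2.31% of all genes tested. The median was 0.02. The serum amyloid A genes *Saa1* and *Saa2* fell. *Saa1* was at 160.0, 454 and 266 CPM in livers and 55.1, 109 and 82.6 CPM in preparations (−1.84 ± 0.38, adjusted p = 0.0438), and *Saa2* was at 148, 428 and 179 CPM in livers and 31, 53.1 and 38.4 CPM in preparations (−2.62 ± 0.42, adjusted p = 0.031). Liver 2 was the highest in both, and no preparation reached a liver. *Orm2* (−1.88, adjusted p = 0.0752) and *Lcn2* (−2.56, adjusted p = 0.0765) were not called, and preparation 2 exceeded liver 3 in *Lcn2*. The related *Saa4* had 418, 591 and 465 CPM in preparations and 201, 328 and 379.6 CPM in livers, higher without overlap and not called. *Fga*, *Fgb* and *Fgg*, the 3 fibrinogen chains, were at 0.47, 0.46 and 0.46 and were not called. Of the 2 calls 2 were kept without liver 1, 1 without preparation 1, liver 2 or liver 3, and 0 without preparation 2 or 3.

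Genes of YAP activity and the cytoskeleton went in both directions, with 1 of 16 tested (of 17) called higher and 2 lower. The shares of all genes tested were 0.409% and 2.31%. The median of the list was −0.79. *Ccn1*, a secreted YAP and immediate early target, was at 51.6, 249 and 98.1 CPM in preparations and 13.9, 19.6 and 16.7 CPM in livers (2.98 ± 0.53, adjusted p = 0.0354), highest in preparation 2. Its relative *Ccn2* was at 4.30, 4.61 and 5.54 CPM in preparations and 54.5, 11.6 and 17 CPM in livers (log2 fold change −2.53 ± 0.60, adjusted p = 0.0573) and was not called. The mesenchymal intermediate filament gene *Vim* (−1.84, adjusted p = 0.0374) and the receptor gene *Axl* (−2.15, adjusted p = 0.0354) fell, while the hepatocyte keratins *Krt8* (−0.03) and *Krt18* (0.02) were not called. The call of *Ccn1* was lost without preparation 2 or 3 or without any of the livers, those of *Vim* and *Axl* without preparation 2, preparation 3, liver 2 or liver 3, and that of *Axl* also without liver 1. Among 16 hepatocyte transcription factors 1 was called, *Onecut1* (HNF6), at 74.9, 77.4 and 62.1 CPM in preparations and 17.6, 24.3 and 35 CPM in livers (1.48 ± 0.24, adjusted p = 0.031). It shares exon bases with the called *Gm20649*, and its call was lost without preparation 2, preparation 3 or liver 2. *Hnf4a* (−0.01) and *Cebpa* (−0.20) were not called.

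Other genes with large rises lay outside the lists. *Gdf15*, a secreted stress hormone of the TGF-beta family, was at 34.1, 100.2 and 56.5 CPM in preparations and 3.10, 4.14 and 4.31 CPM in livers (4.03 ± 0.43, adjusted p = 0.011). The noncoding *1200007C13Rik* had 21, 50 and 28 counts in preparations and 0, 0 and 1 in livers, at least 14.2-fold higher (adjusted p = 0.0164). *Serpina9* (3.91), *Gm17056* (3.18) and *Hectd2os* (2.70) complete the 15 largest non-overlapping rises, and *Hectd2os* shares exon bases with the called *Hectd2*. In the 6 fits without 1 sample, *Serpina9*, *Gm17056* and *Hectd2os* were called without preparation 1 alone. *Gdf15* was called in 4 of these fits and *1200007C13Rik* in 3.

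Cell type lists were mostly lower. In the 18 lists of cells other than hepatocytes, 113 of 221 members were tested, and 43 were called lower and 0 higher, against 2.31% and 0.409% of all genes tested. Many members passed the filter on low counts through the livers alone, so the counts and medians of tested members describe those genes and not the whole lists. With at least 10 counts required in every sample, 67 members were left and 16 were called lower. The plot of summed levels by sample uses all members found.

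**Figure D2:**
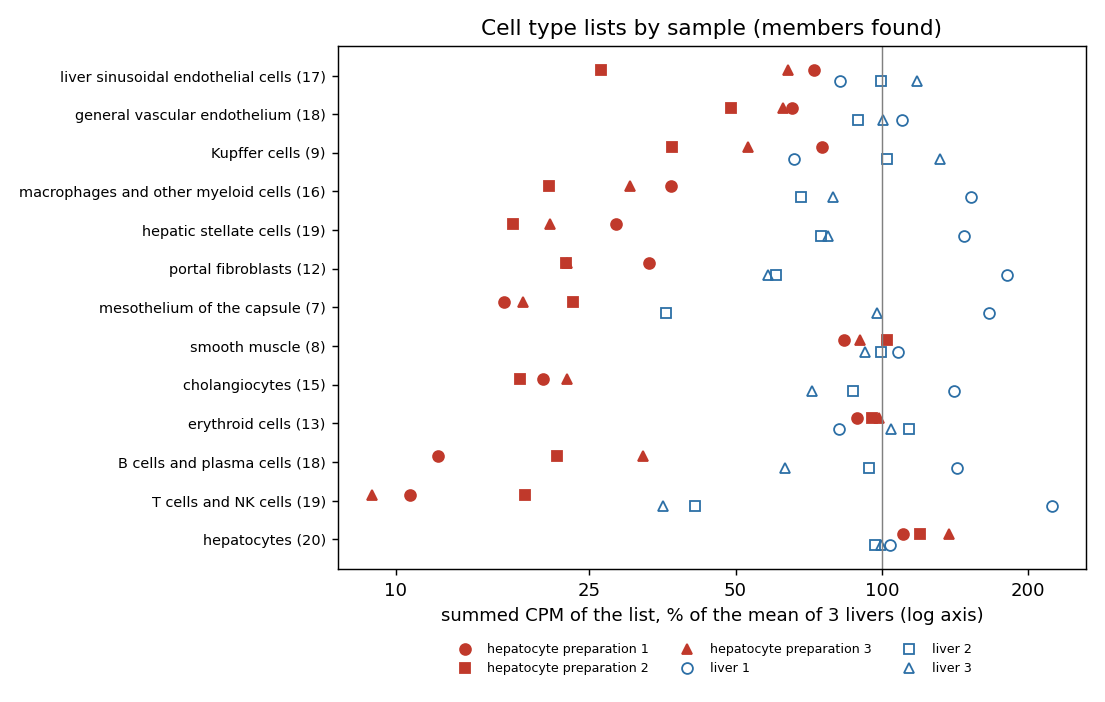
Summed CPM of each cell type list with at least 3 tested members, as a percentage of the mean of the 3 livers on a log axis, with 1 point per sample and the number of members found in brackets. Stellate, portal fibroblast, cholangiocyte and B cell sums lie far below the livers in all 3 preparations, and sinusoidal endothelial sums less so. Kupffer sums overlap, with preparation 1 at 75.3% and the lowest liver at 66.1%. Smooth muscle and erythroid sums lie near the livers, and *Alas2* holds most of the erythroid sum while the globin genes fell.

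Most sinusoidal endothelial genes were lower by value and not called. Of 17 genes 16 were tested, all 16 were below 0, and 3 were called lower, against 2.31% of all genes tested. The median was −0.98, and the summed level was 72.6%, 26.4% and 64.1% of the liver mean in preparations 1, 2 and 3, with livers between 82.1% and 118%. *Stab2*, the hyaluronan scavenger receptor that marks these cells, was at 33, 40.2 and 37.2 CPM in preparations and 32.3, 53.6 and 46.4 CPM in livers, which overlapped (log2 fold change −0.26 ± 0.20, adjusted p = 0.455). *Clec4g*, a lectin of the same cells, was at 111, 23.1 and 98.8 CPM in preparations and 89.3, 143 and 166 CPM in livers (−0.78 ± 0.48, adjusted p = 0.351). Preparation 2 was the lowest sample in *Clec4g*, while preparations 1 and 3 lay among the livers. In contrast *Lyve1*, another hyaluronan receptor, fell from 55.2, 19.9 and 18 CPM in livers to 8.32, 4.28 and 5.93 CPM in preparations (−2.31 ± 0.50, adjusted p = 0.047). *Mrc1* (−1.15), *Kdr* (−1.15), *Stab1* (−1.18) and *Dnase1l3* (−0.66) were not called. Of the 3 calls 0 or 1 were kept in the fits without 1 sample, and the median was −0.61 without preparation 2 and −1.37 without preparation 1.

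Most genes of the general vascular endothelium list were lower by value and not called. Of 18 genes 17 were tested and 5 called lower, against 2.31% of all genes tested. The median was −1.28, and all 17 were below 0. *Vwf*, the clotting factor of larger vessels, was at 0.860, 1.32 and 0.395 CPM in preparations and 10.6, 10.5 and 5.83 CPM in livers (−3.30 ± 0.49, adjusted p = 0.0289). *Esm1* had 1, 0 and 1 counts in preparations and 87, 19 and 22 in livers, at least 11-fold lower with the preparations set to 3 counts (adjusted p = 0.0374). *Pecam1* (CD31) was at 14.9, 10.5 and 9.09 CPM in preparations and 35.4, 19.1 and 30.4 CPM in livers (log2 fold change −1.28 ± 0.30, adjusted p = 0.0541), without overlap but not called. *Ptprb* (−1.21) and *Tie1* (−1.33) were called, as was the factor *Erg*, at least 3.73-fold lower. *Ramp2*, a co-receptor for adrenomedullin, was at 172, 183 and 179 CPM in preparations and 174, 187 and 183 CPM in livers, a log2 fold change of −0.03 ± 0.11. Of the 5 calls 2, 0 and 0 were kept without preparations 1, 2 and 3 and 2, 0 and 1 without livers 1, 2 and 3.

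Kupffer cell genes had no call in edgeR or DESeq2. Of 9 genes 8 were tested, all 8 were below 0, 3 at an unadjusted p under 0.05, and the median was −0.88. The summed level was 75.3%, 37% and 53% of the liver mean in preparations and 66.1% to 132% in livers, so the groups overlapped. *Clec4f*, the lectin specific to these macrophages, was at 64, 38.9 and 48.6 CPM in preparations and 28.6, 98.1 and 117 CPM in livers (log2 fold change −0.68 ± 0.44, adjusted p = 0.372), and liver 1 was the lowest sample. *Cd5l*, a secreted inhibitor of apoptosis, was at 65.7, 36.3 and 48.2 CPM in preparations and 87.2, 86.2 and 114 CPM in livers without overlap (log2 fold change −0.93 ± 0.22, adjusted p = 0.0582). The median was −1.28 without preparation 1, −0.57 without preparation 2, −1.12 without liver 1 and −0.46 without liver 3.

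Genes of macrophages and other myeloid cells fell in part, with 7 of 14 tested (of 16) called lower, against 2.31% of all genes tested. Their median was −1.86. The sum was 36.8%, 20.7% and 30.3% of the liver mean, and livers spanned 68% to 153%. The complement gene *C1qc* was at 5.16, 3.95 and 7.51 CPM in preparations and 33.3, 22.4 and 24.1 CPM in livers (−2.27 ± 0.30, adjusted p = 0.0195), and *C1qa* (−1.93) and *C1qb* (−1.79) were called too. The lysosomal protease gene *Ctss* was at 19.5, 15.2 and 15.4 CPM in preparations and 159, 51.4 and 53.8 CPM in livers (−2.39 ± 0.46, adjusted p = 0.0392). *Cybb* (−2.13), *Fcer1g* (−1.98) and *Laptm5* (−2.41) were called, and the macrophage receptor genes *Csf1r* (−0.99) and *Adgre1* (−0.89) were not. Of the 7 calls 7, 0 and 0 were kept without preparations 1, 2 and 3 and 6, 0 and 4 without livers 1, 2 and 3, with a median of −1.64 without liver 1. MHC class II genes, which present antigen on such cells, had 4 of 6 tested (of 7) called lower, against 2.31% of all genes tested. Their median was −2.45, or −2.49 over the 4 left with at least 10 counts in every sample. *Cd74*, their invariant chain, was at 53.3, 48.4 and 50.2 CPM in preparations and 426, 151 and 147 CPM in livers (−2.25 ± 0.41, adjusted p = 0.0364), highest in liver 1, and it shares exon bases with *Mir5107*. Without liver 1 the median of these genes was −1.70 and the 4 calls were kept, and without preparation 2, preparation 3 or liver 2 all 4 were lost.

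Stellate cell genes fell across most of the list. Of 19 genes 15 were tested and 10 were called lower, against 2.31% of all genes tested. The median was −2.72, and all 15 were below 0. With at least 10 counts required in every sample 7 members were left, with a median of −2.09. The summed level was 28.4%, 17.5% and 20.8% of the liver mean in preparations, with livers at 75.1% to 148%. *Reln* (ENSMUSG00000042453, chromosome 5, 21884454 to 22344702), a secreted glycoprotein of these cells, was at 11.2, 8.57 and 10.3 CPM in preparations and 110.0, 63.8 and 54.8 CPM in livers (−2.92 ± 0.30, adjusted p = 0.00902). *Ecm1*, which holds latent TGF-beta inactive, was at 41.3, 22.4 and 26.5 CPM in preparations and 109.7, 111 and 109.6 CPM in livers (−1.86 ± 0.21, adjusted p = 0.0136), where the livers were nearly equal. *Lrat*, the enzyme that stores vitamin A as ester, was at 6.88, 0 and 3.16 CPM in preparations and 30.2, 25.7 and 21.8 CPM in livers (log2 fold change −2.89 ± 0.67, adjusted p = 0.0537), with 0 counts in preparation 2, where 3 counts would be 0.989 CPM, and was not called. The proteoglycan gene *Dcn* was at 130.2, 98.9 and 97.7 CPM in preparations and 709, 300.0 and 345 CPM in livers (−2.05 ± 0.32, adjusted p = 0.031). *Cygb* (−3.59), *Tcf21* (−3.31), *Colec11* (−2.72) and *Des* (−2.72) were called, while *Pdgfrb* (−3.68, adjusted p = 0.0691) was not. Without liver 1 the median was −2.33. Of the 10 calls 9, 2 and 0 were kept without preparations 1, 2 and 3 and 8, 1 and 8 without livers 1, 2 and 3.

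Portal fibroblast genes had 7 of 12 tested and 2 called lower, against 2.31% of all genes tested. Their median was −1.06, or −0.78 without liver 1. *Dpt* (dermatopontin) had 2, 0 and 2 counts in preparations and 344, 46 and 35 in livers, at least 36.4-fold lower (adjusted p = 0.0438). *Col14a1* was called (−3.19, adjusted p = 0.0354), and *Fbln1* (−0.16) and *Col15a1* (−0.30) were not. In the mesothelium of the liver capsule 3 of 7 were tested, with a median of −1.57 that was −0.92 without liver 1 and −5.73 without preparation 2. With at least 10 counts required in every sample 1 member was left, at −1.19. *Msln* had 0, 0 and 1 counts in preparations and 69, 10 and 47 in livers, at least 10.7-fold lower (adjusted p = 0.0354), and *Upk3b* was at 0 in all preparations. Smooth muscle genes gave another picture, with 5 of 8 tested, 0 called in edgeR or DESeq2, 0 at an unadjusted p under 0.05 and a median of −0.11. *Acta2* was at 55.6, 57.7 and 59.3 CPM in preparations and 54.2, 56.9 and 52.2 CPM in livers (log2 fold change 0.08 ± 0.12), and *Myh11*, the myosin of smooth muscle, at 19.8, 25 and 32 CPM and 23.2, 25.4 and 25.4 CPM (0.05 ± 0.21). The 2 fibroblast calls were both lost without preparation 2, preparation 3 or liver 2. The call of *Msln* was kept without liver 2 and lost without each preparation in turn. Without liver 1 or liver 3 *Msln* was not tested.

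Bile duct genes fell in part of the list. Of 15 cholangiocyte genes 7 were tested and 4 called lower, against 2.31% of all genes tested. The median was −2.99, or −2.53 with genes near 0 set to their bound. With at least 10 counts required in every sample 3 members were left, with a median of −0.04. *Spp1* (osteopontin; ENSMUSG00000029304, chromosome 5, 104435118 to 104441050) was at 30.4, 22.1 and 32 CPM in preparations and 314, 193 and 167 CPM in livers (−2.99 ± 0.27, adjusted p = 0.00445) and was called in each fit without 1 sample. *Krt19* had 0, 0 and 1 counts in preparations and 34, 18 and 15 in livers, at least 5.78-fold lower (adjusted p = 0.031). *Epcam* was at least 9.92-fold and *Cd24a* at least 18.2-fold lower. *Pkhd1* had a log2 fold change of 0.03 ± 0.29. *Sctr* was at 0 in all preparations. Of the 4 calls 1 was kept without preparation 2, preparation 3 or liver 2, and all 4 in the other 3 fits.

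Haemoglobin transcripts took 0.000888% to 0.00188% of the counts in preparations and 0.0118% to 0.0174% in livers (exact permutation p = 0.1, the smallest possible). *Hbb-bs* (ENSMUSG00000052305, chromosome 7, 103826534 to 103828096), an adult beta globin, was at 12, 6.26 and 6.72 CPM in preparations and 79, 98.6 and 68.5 CPM in livers (−3.27 ± 0.27, adjusted p = 0.00399), and *Hbb-bt* had 3.73, 1.98 and 3.56 CPM in preparations and 33.3, 43.1 and 30.4 CPM in livers (−3.51 ± 0.29, adjusted p = 0.00399). The alpha globin *Hba-a2* was at least 10.8-fold lower, with 1, 0 and 1 counts in preparations. Of 13 erythroid genes 6 were tested and 5 called lower, against 2.31% of all genes tested. The median was −3.06, or −1.33 over the 2 members left with at least 10 counts in every sample. The exception was *Alas2*, the haem synthesis enzyme of red cells, at 279.9, 312 and 322 CPM in preparations and 133, 207 and 231 CPM in livers (log2 fold change 0.68 ± 0.20, adjusted p = 0.0893). It held most of the list's summed level, which therefore reached 88.7% to 98.6% of the liver mean. Of the 5 calls 2 to 4 were kept in the fits without 1 sample, *Hbb-bs* and *Hbb-bt* in all of them.

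Several plasma cell transcripts fell. Of 18 B cell and plasma cell genes 7 were tested and 5 called lower, against 2.31% of all genes tested. The median was −4.64, or −3.38 with genes near 0 at their bound, and −3.58 without liver 1. With at least 10 counts required in every sample 1 member was left, *Ighm*. *Igha* (ENSMUSG00000095079, chromosome 12, 113254830 to 113260236), the heavy chain of IgA, was at 1.15, 0.659 and 1.58 CPM in preparations and 37.4, 26.2 and 24.6 CPM in livers (−4.69 ± 0.36, adjusted p = 0.00399). *Igkc*, the kappa light chain, was at 3.44, 1.65 and 0.791 CPM in preparations and 75.4, 48.6 and 33.7 CPM in livers (−4.64 ± 0.47, adjusted p = 0.00896). *Jchain* fell as well (−3.38, adjusted p = 0.0264), and *Ighg2b* was at least 12.3-fold lower. *Ighm*, the heavy chain of IgM, was at 7.17, 29.99 and 34.8 CPM in preparations and 48, 38.1 and 10.4 CPM in livers, which overlapped (log2 fold change −0.44 ± 0.63, adjusted p = 0.692). *Cd79b*, part of the B cell receptor, had 0, 1 and 1 counts in preparations and 67, 10 and 21 in livers, at least 8.36-fold lower. Of the 5 calls 1 to 4 were kept in the fits without 1 sample, and *Igha* in all of them.

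The rarer cells gave little to test. Of 19 T cell and NK cell genes 3 were tested and 0 called in edgeR, with 2 lower at an unadjusted p under 0.05 and 1, *Nkg7*, called lower in DESeq2, and *Ccl5* was at 2.01, 0.659 and 0 CPM in preparations and 41, 5.25 and 4.31 CPM in livers, highest in liver 1 (adjusted p = 0.084). Their median was −4.07, −3.65 with *Nkg7* at its bound, and −2.26 without liver 1. With at least 10 counts required in every sample 0 members were left. Of 10 dendritic cell genes 2 were tested, and *Clec9a* was called lower, at least 3.45-fold, a call lost in each fit without 1 sample. Of 13 neutrophil and 5 adipocyte genes 0 were tested, and of 9 platelet, 6 Schwann cell and 7 pancreatic acinar cell genes 1 each was tested and 0 called in edgeR. The platelet gene *Pf4* was lower at an unadjusted p under 0.05 and called in DESeq2, and the other two were neither. The summed level of all T cell and NK cell genes was 10.7%, 18.5% and 8.96% of the liver mean in preparations and 35.5% to 223% in livers, and that of all neutrophil genes 16%, 34.2% and 9.48% in preparations and 79% to 122% in livers, both without overlap. At this depth most single genes of these cell types could not be tested.

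Hepatocyte genes themselves had no call past the fold limit. All 20 were tested and 0 were called in edgeR or DESeq2, with a median of 0.30 and all 20 above 0, 10 of them at an unadjusted p under 0.05. *Alb* was at 3180.0, 3359.9 and 4237 CPM in preparations and 2872, 2994 and 2789.9 CPM in livers (0.32 ± 0.13, adjusted p = 0.184), but its raw counts were 11088, 10195 and 10717 in preparations and 11127, 10838 and 11001 in livers. Duplicate reads had been removed, and a gene with equal counts in all 6 samples would show a log2 fold change of 0.35 after scaling. The 189 genes with at least 0.4 counts per base and library had a median of 0.21, and the other 12047 had 0.00426. *Abcb11*, the bile salt export pump, was higher without overlap, at 779, 776 and 973 CPM in preparations and 560.0, 418 and 411 CPM in livers, short of the fold limit (0.86 ± 0.16, adjusted p = 0.0386). Under size factors from the hepatocyte genes alone their median was 0.07, and the median of all genes was −0.21.

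**Figure D3:**
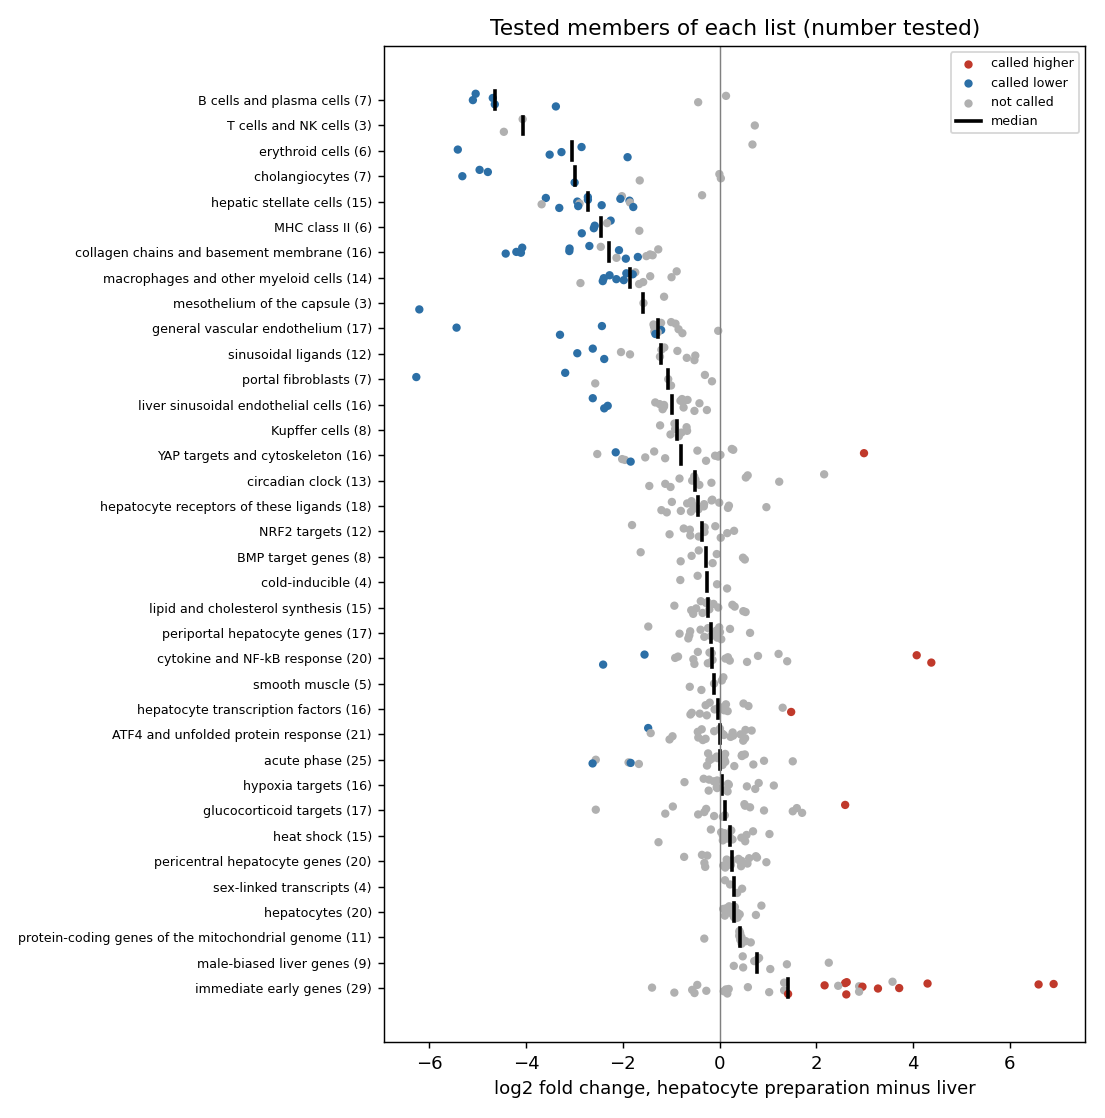
Log2 fold change (preparation minus liver) of each tested member of the lists with at least 3 tested members, with the number tested in brackets, a bar at the median, and red and blue points for genes called higher and lower. All tested members of the stellate cell and collagen lists lie below 0, and 23 of 29 immediate early genes lie above it.

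Collagen and other matrix genes were lower by value, and most of those tested were called. Of 17 collagen and basement membrane genes 16 were tested and 10 called lower, against 2.31% of all genes tested. The median was −2.29, and all 16 were below 0. With at least 10 counts required in every sample 9 members were left, with a median of −1.98. *Col1a2*, a chain of type I collagen, was at 1.72, 2.64 and 1.19 CPM in preparations and 66.8, 18 and 11.7 CPM in livers (−4.08 ± 0.78, adjusted p = 0.0393), highest in liver 1. *Bgn* (biglycan) was at 39.9, 28.7 and 39.9 CPM in preparations and 411, 126 and 163 CPM in livers (−2.69 ± 0.43, adjusted p = 0.031). *Col3a1* (−3.10), *Col6a1* (−4.20), *Col6a2* (−4.10) and *Col6a3* (−4.42) were called, and the other type I chain *Col1a1* was not (−2.45, adjusted p = 0.0975), nor was *Col4a1* (−1.27). The summed level was 21.3%, 15.4% and 20.4% of the liver mean, and liver 1 was at 174% of it. Without liver 1 the median was −1.64 and 7 of the 10 calls were kept. Without preparation 2, preparation 3 or liver 2 all 10 were lost.

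Ligands that sinusoidal cells send to hepatocytes were lower by value, and most were not called. Of 18 ligand genes 12 were tested, all 12 were below 0 and 3 were called lower, against 2.31% of all genes tested. The median was −1.22, or −0.81 over the 2 left with at least 10 counts in every sample. *Bmp2*, the endothelial signal for hepcidin, was at 3.15, 1.65 and 1.98 CPM in preparations and 15, 16.3 and 11.7 CPM in livers (−2.62 ± 0.35, adjusted p = 0.0195). *Rspo3*, the R-spondin of central vein endothelium that strengthens Wnt signalling, was at 1.72, 4.28 and 0.791 CPM in preparations and 16, 11.9 and 8.62 CPM in livers (−2.38 ± 0.52, adjusted p = 0.0471). *Gdf2* (BMP9), made by stellate cells, was at 7.46, 5.27 and 1.19 CPM in preparations and 63.5, 22.4 and 25.9 CPM in livers (−2.94 ± 0.58, adjusted p = 0.0395). Every preparation lay below every liver in these 3. *Wnt2*, the other central vein signal, was at 6.02, 1.32 and 4.74 CPM in preparations and 2.84, 4.42 and 10.1 CPM in livers (log2 fold change −0.52 ± 0.62, adjusted p = 0.637), which overlapped. *Hgf* (−1.85, adjusted p = 0.0703) and the Notch ligand *Dll4* (−2.04, adjusted p = 0.0573) were not called, and *Cxcl12* was lower within the fold limit (−0.87, adjusted p = 0.0475). Of the 3 calls 2, 0 and 0 were kept without preparations 1, 2 and 3 and 1, 0 and 1 without livers 1, 2 and 3.

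**Figure D4:**
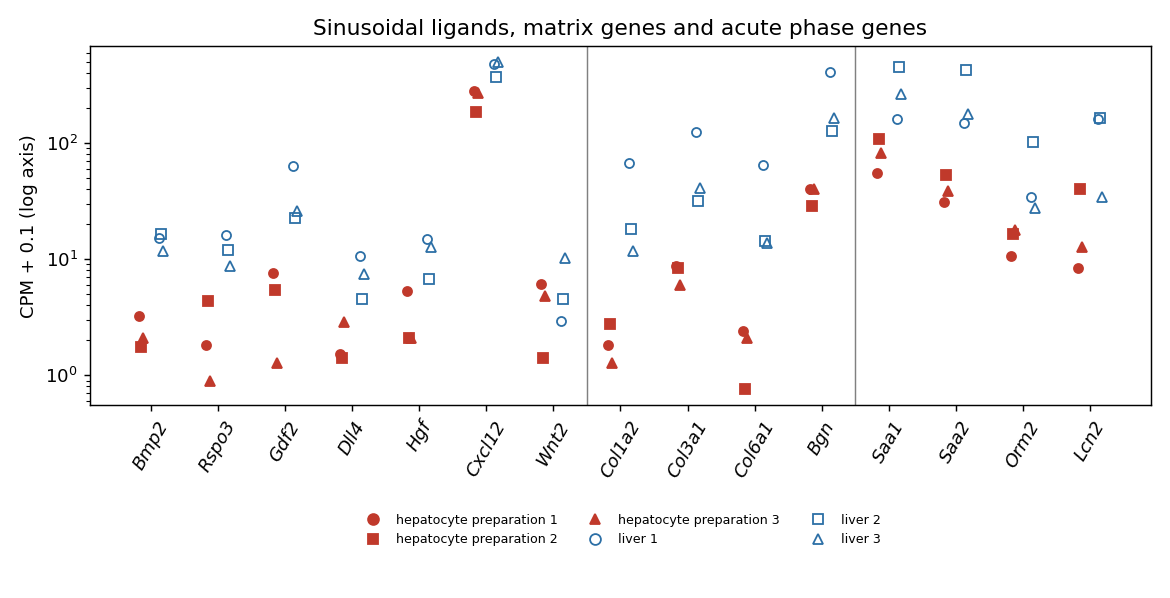
CPM + 0.1 on a log axis for selected sinusoidal ligands (left), matrix genes (middle) and acute phase genes (right), with 1 point per sample. The genes shown were picked and do not stand for their lists. Of all 25 acute phase genes 12 were below 0 and 13 above it, with a median log2 fold change of 0.02. Preparations lie below all livers for *Bmp2*, *Rspo3* and *Gdf2*, for the 4 matrix genes and for *Saa1* and *Saa2*, while *Wnt2* overlaps.

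Of 18 receptor genes all were tested and 0 called in edgeR, with a median of −0.44 and 15 below 0. At an unadjusted p under 0.05, 8 were lower, and DESeq2 called 1, *Tgfbr2*, lower. The BMP receptor gene *Bmpr2* was at 30.7, 26 and 20.6 CPM in preparations and 57.6, 49.7 and 46.7 CPM in livers without overlap, just short of the fold limit (−0.99 ± 0.18, adjusted p = 0.0378). *Met*, the receptor of HGF, had a log2 fold change of −0.44, and *Egfr* of −0.01. Of 9 BMP target genes 8 were tested and 0 called in edgeR, with 2 higher and 2 lower at an unadjusted p under 0.05 and 1, *Bambi*, called lower in DESeq2. Their median of −0.29 was −0.63 without preparation 1 and −0.10 without preparation 3. *Hamp*, the hepcidin gene, was at 173, 133 and 135 CPM in preparations and 171, 149 and 139 CPM in livers (log2 fold change −0.06 ± 0.15), and *Id1* had −0.58 and *Id3* 0.52.

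Zonation genes, which hepatocytes express by their place between portal tract and central vein, spread widely among the preparations. Of 20 tested pericentral genes (of 21) and 17 periportal genes 0 were called in edgeR or DESeq2, with medians of 0.25 and −0.18. At an unadjusted p under 0.05, 1 pericentral gene was higher and 0 periportal genes differed. The periportal sum was 108%, 48.1% and 119% of the liver mean in preparations 1, 2 and 3, and the pericentral sum 92.1%, 185% and 111%. *Glul*, the glutamine synthetase of cells next to the central vein, was at 314, 1305 and 206 CPM in preparations and 253, 678 and 591 CPM in livers. *Slc1a2*, a glutamate transporter of the same cells, was at 112, 751 and 96.9 CPM in preparations and 133, 291 and 283 CPM in livers. Preparation 2 was the highest of the 6 samples in both. *Cyp2f2*, a periportal cytochrome P450, was at 1176, 161 and 1358 CPM in preparations and 929, 891 and 995 CPM in livers, and *Sds*, the serine dehydratase of gluconeogenesis, at 301, 12.2 and 228 CPM in preparations and 567, 131 and 149 CPM in livers. Preparation 2 was the lowest of the 6 in both, as in *Hal*, with 493, 52.1 and 628 CPM in preparations. Without preparation 2 the median was −0.23 for pericentral and 0.13 for periportal genes, each with its sign turned, and 0 members were called.

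Transcripts of the Y chromosome were found in all 6 samples, and *Xist* had at most 3 counts in each. *Ddx3y* was at 111, 140.1 and 80.3 CPM in preparations and 96, 102 and 109 CPM in livers. Sex-biased hepatocyte genes set liver 1 apart. *Cyp2b9*, which female mouse liver expresses more, was at 213, 0.276 and 0 CPM in livers 1, 2 and 3, and the preparations had 1.15, 0.330 and 0 CPM. *Elovl3*, which male liver expresses more, was at 20.6, 218 and 210.5 CPM in livers and 306, 825 and 1015 CPM in preparations (log2 fold change 2.26 ± 0.76, adjusted p = 0.118). *Hsd3b5* was at 1.55, 244 and 179 CPM in livers and 169.5, 508 and 436 CPM in preparations. All 9 male-biased genes were above 0, 1 at an unadjusted p under 0.05, and 0 were called in edgeR or DESeq2, with a median of 0.78 that was 0.27 without liver 1.

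**Figure D5:**
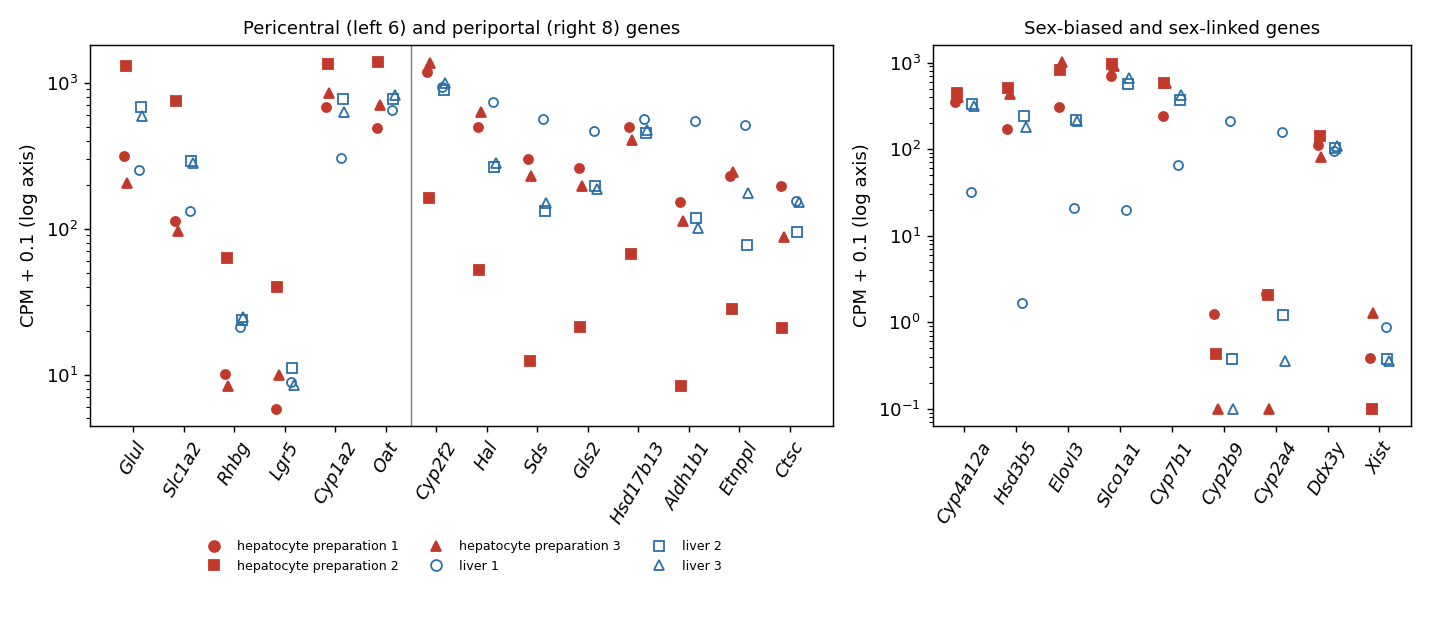
CPM + 0.1 on a log axis for 6 of 21 pericentral and 8 of 17 periportal genes (left panel) and for selected sex-biased and sex-linked genes (right panel), with 1 point per sample. The genes shown were picked and do not stand for their lists. Among the preparations, preparation 2 is highest in the pericentral and lowest in the periportal genes shown. Liver 1 is lowest in the male-biased genes *Cyp4a12a*, *Hsd3b5*, *Elovl3*, *Slco1a1* and *Cyp7b1* and highest in *Cyp2b9* and *Cyp2a4*.

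The lower calls outside the lists, named by the rule of largest falls, were again genes near 0 in preparations. *Fam180a* had 0 counts in each preparation and 138, 23 and 27 in livers, at least 16.1-fold lower (adjusted p = 0.0493). *Art4* was at least 14.3-fold, *Arhgap15* at least 4.98-fold and *Adcyap1r1* at least 4.84-fold lower. *Adamtsl2*, a secreted protein of the fibrillin matrix, was at 0.287, 1.32 and 1.98 CPM in preparations and 87.2, 10.5 and 12.4 CPM in livers (−4.99 ± 1.10, adjusted p = 0.0493). In the 6 fits without 1 sample *Arhgap15* was called in 0, and *Fam180a* and *Adamtsl2* without liver 1 alone. *Art4* was called in 2 of these fits and *Adcyap1r1* in 3. Of the 283 lower calls, 22 were genes of the gamma protocadherin cluster, which share their last exons, and counting genes linked by shared exon bases once left 256 lower and 46 higher calls.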

How the data were processed

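Total RNA was sequenced as Smart-seq3 bulk libraries, 3 per sample. The deposited counts are raw reads per gene: the authors aligned reads to mm10 with TopHat2, removed duplicates with UMI-tools and SAMtools and counted exons with featureCounts 1.4.6-p5, without strand and without reads of several places, letting a read count for each gene it overlaps. Their technical libraries were summed, 2718518 to 3871404 counts per sample. Tables of TPM, uncorrected and iris-corrected, were not used here. Samples were grouped by their labels. The 46517 genes (92 spike-in controls left out) were filtered by filterByExpr, scaled by TMM and tested with edgeR 4.0.16 (glmQLFit and glmQLFTest, R 4.3.3), preparations against livers, with Benjamini-Hochberg adjustment over 12236 genes. The SE after each ± is the absolute log2 fold change divided by the square root of the F statistic of this test. Single values per sample were compared by exact permutation over 20 splits. Alternatives were DESeq2 1.42.0, limma-voom (limma 3.58.1), RLE, library size and other size factors, other filters, all 5 groups in 1 fit, a replicate block, no fold limit and leaving out each sample. On simulated data edgeR recovered 99 of 100 genes changed 4-fold and 100 of 100 changed 8-fold in 12032 genes, and called 2 unchanged genes. The changed genes were drawn only from genes with higher liver counts, and spread was drawn from the fitted trend alone. Recovery of genes at low counts, as in many of the falls named here, was therefore not examined. The samples, 44 gene lists (631 members, 2 not found) and tests were chosen with earlier results of these data known. Named genes are list members and the 15 largest and 15 smallest log2 fold changes among called genes without overlap. Single values of some list members are not reported here. Where no sample of a group exceeded 3 counts, a bound is given in place of a fold. Technical libraries of a sample differed by a chi-square of 1.28 to 1.82 per degree of freedom and samples of a group by 6.41 to 18, so each sample counted as 1 replicate.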

Additional observations from a re-analysis of the deposited data

How the results depend on the processing

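No called gene changed direction under any alternative. The 50 higher and 283 lower calls became 43 and 414 with library size alone, where the median of all genes was −0.10 and 9.41% of calls were higher, against 15% before. With size factors from hepatocyte genes they became 42 and 736 (median −0.21, 5.4% higher). With no filter on low counts 191 and 1014 were called, and with at least 10 counts in every sample 30 and 139. DESeq2 called 119 and 528, limma-voom 9 and 11, all 5 groups in a single fit 217 (1.27%) and 923 (5.41%), and no fold limit 96 and 347. Without single samples the calls ran from 4 to 110 higher and from 4 to 338 lower. Cell type members called lower, 43 as reported, numbered 97 without a filter, 16 with at least 10 counts, 68 in DESeq2, 6 in limma-voom, 70 in the fit of 5 groups, and 4 to 46 without single samples. Immediate early members called higher, 11 as reported, numbered 18 without a filter, 8 with at least 10 counts and 4 in limma-voom. They numbered 18 in the fit of 5 groups and 2 to 15 without single samples. The cause of these moves was not tested. At an unadjusted p under 0.05, 3100 genes differed in edgeR and 3066 in limma-voom. Same-numbered preparations and livers deviated together by correlations of 0.105, 0.063 and −0.043, so the numbers were not taken to pair samples, and a replicate block gave 62 higher, 346 lower, 51 cell type and 10 immediate early calls. Counting genes with shared exon bases once, chosen after seeing the data, left 46 and 256. Of 90 named called genes, 5 were called under each of the 16 alternative fits (*Spp1*, *Hbb-bs*, *Jun*, *Socs3* and *Cxcl1*) and 3 under the 15 that tested them (*Hbb-bt*, *Igha* and *Fos*, untested with at least 10 counts in every sample). Depth limits rare cell types: 3 of 19 T cell and NK cell, 0 of 13 neutrophil and 2 of 10 dendritic cell genes passed the filter.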

Other observations

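Clock genes, which cycle with the time of day, had 0 edgeR calls among 13 tested (of 14), but preparations differed among themselves. At an unadjusted p under 0.05 there were 2 higher and 1 lower, and DESeq2 called 3, *Arntl*, *Nr1d1* and *Per1*. *Per3* was at 55.1, 5.27 and 5.14 CPM in preparations 1, 2 and 3 and 66.1, 70.7 and 48.7 CPM in livers, so preparation 1 lay among the livers and preparations 2 and 3 far below. *Dbp*, a clock output factor, was at 82.3, 20.8 and 10.3 CPM in preparations and 60.7, 59.7 and 43.1 CPM in livers. *Arntl*, which peaks in the opposite phase, was at 4.88, 13.2 and 47.8 CPM in preparations and 1.81, 4.14 and 8.37 CPM in livers, highest in preparation 3. *Nr1d1* was at 109, 211 and 119 CPM in preparations and 82.1, 54.4 and 50.2 CPM in livers (log2 fold change 1.23 ± 0.29, adjusted p = 0.0552), without overlap and not called. The list median was −0.50, and −0.95, −0.19 and −0.05 without preparations 1, 2 and 3 and −0.27 without liver 3. No sampling time is given in the sources used here, so time of day and preparation cannot be told apart.

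Lipid and cholesterol synthesis genes also had 0 calls in edgeR or DESeq2 among 15 tested, 1 higher and 1 lower at an unadjusted p under 0.05, with a median of −0.25, and spread within both groups. *Fasn*, fatty acid synthase, was at 1799, 321 and 678 CPM in preparations and 569, 1617 and 869 CPM in livers. *Elovl6*, which lengthens fatty acids, was at 898, 166 and 139 CPM in preparations and 239.8, 898 and 325 CPM in livers. Preparation 2 was the lowest sample in *Fasn*, and preparation 1 was above liver 3 in both genes. The median was −0.80, −0.03 and −0.04 without preparations 1, 2 and 3, −0.40 without liver 1 and −0.10 without liver 2. Feeding before sampling is not given in the sources used here.

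Of the protein-coding genes of the mitochondrial genome 11 of 13 were tested and 0 called in edgeR or DESeq2, with a median of 0.43 and 9 higher at an unadjusted p under 0.05. *mt-Nd5* was at 1565, 1746 and 2182 CPM in preparations and 1121, 1208 and 1184 CPM in livers, under the fold limit (0.65 ± 0.14, adjusted p = 0.0493). The median was 0.20 with size factors from hepatocyte genes. The nuclear noncoding *Neat1* was at 126, 512 and 445 CPM in preparations and 399.8, 214 and 187 CPM in livers and overlapped.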
